A study of Homo sapiens with 54 samples.

Results

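The nuclear genes for the subunits of the mitochondrial respiratory chain and ATP synthase were followed in MDA-MB-231, a long-used line of human breast cancer cells, treated with Compound Kushen Injection (CKI), an extract of medicinal plants, or with mixtures made from it. Rows of the gene table were taken by their symbols: NDUF for complex I, SDH for complex II, UQCR for complex III, COX4 to COX8 for complex IV and ATP5 for complex V. Of 27978 rows, 94 matched, and 84 had a mean of at least 1 CPM (counts scaled to a common library total) over all 54 libraries and were kept. These were 39 rows of complex I, 4 of complex II, 9 of complex III, 13 of complex IV and 19 of complex V. All 84 had enough counts for the test in every comparison. The 10 rows left out included the tissue isoforms COX4I2, COX6A2, COX7A1 and COX8C. Next to the minimum lay NDUFB2-AS1 at 0.898 CPM and NDUFA4L2 at 0.417 CPM on the lower side, and UQCRHL at 1.05 CPM and NDUFV2-AS1 at 1.12 CPM on the upper side.

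The name rule was checked against what the genes encode. NDUFA6-DT and NDUFV2-AS1 are noncoding transcripts beside NDUFA6 and NDUFV2, UQCRHL is a near copy of UQCRH whose reads cannot be separated with certainty, ATP5IF1 is an inhibitor of the ATPase, ATP5S is a factor rather than a subunit, and COX7A2L is a supercomplex factor. The other 78 rows are subunits or their isoforms. NDUFA4 carries a complex I name but is a subunit of complex IV. The subunits encoded in mitochondrial DNA, and CYC1 of complex III, fall outside the rule.

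Each of the 18 groups had 3 replicates, which the labels call biological. In batch 1, at 24 and at 48 h, cells were left untreated (UT), or were given CKI, N-OmtOspc (CKI from which oxymatrine and oxysophocarpine were removed), N-MacOmtOspc (CKI from which macrozamin was removed as well), OmtOspc (only those 2 compounds) or MacOmtOspc (only those 3). In batch 2, at 48 h alone, they were left untreated or given CKI, N-Mac, N-Nme, N-Omt or N-Tri, each being CKI lacking 1 compound (macrozamin, N-methylcytisine, oxymatrine and trifolirhizin). CKI was used at 2 mg/ml and the mixtures at the matching dose. The cells were 1 line grown without other cell types, and the labels name no vehicle for the untreated cells.

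Respiratory complexes pass electrons from NADH (complex I) and succinate (complex II) through coenzyme Q, complex III and cytochrome c to oxygen (complex IV), and complexes I, III and IV pump protons that drive ATP synthesis by complex V. Most subunits are encoded in the nucleus and must be made in step with the few encoded in mitochondria. In cancer cells the chain is known for its part in ATP supply, in keeping NAD oxidised for biosynthesis and in the sensitivity of cells to inhibitors of complex I.

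Total counts were between 17673500 and 26138900 per library. Members took a mean of 0.71% to 1.07% of the counts of a group. Replicates spread more at 24 h, where the biological coefficient of variation was 0.175, than at 48 h, where it was 0.0763 in batch 1 and 0.0480 in batch 2. At 24 h, 3 libraries whose column names carry no replicate number (CKI replicate 1, N-MacOmtOspc replicate 2 and OmtOspc replicate 2) lay apart from their group. The SD over genes of their difference from their group mates was 0.550 to 0.672 on the log2 scale, against 0.346 to 0.522 for the 6 other libraries of those groups. N-OmtOspc replicate 3 reached 0.556. Counts at 24 h are therefore given with and without the 3 libraries. VIM (521 to 1505 CPM), CD44, EGFR and AXL were expressed in every library, and ESR1 and PGR had at most 8 and 2 counts, the pattern known for this line. The summed level of 5 fibroblast genes was 15.1 to 94.6 CPM over the libraries. COL1A1 was at 9.05 to 67.5 CPM, COL1A2 at 0.691 to 43.5 CPM and PDGFRB at 2.28 to 14.9 CPM. LUM was at 0.745 to 6.83 CPM and COL3A1 at 0 to 4.10 CPM.

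Per kilobase of exon, members covered a wide range of levels. COX8A stood highest with a mean of 453 CPM per kb. COX6B1, which faces the intermembrane space in complex IV, had 152 CPM per kb, while its testis isoform COX6B2 had 0.450 CPM per kb. COX7B had 34.8 CPM per kb and its isoform COX7B2 2.58 CPM per kb. The 3 genes that encode the same mature subunit c of the ATP synthase rotor ranked ATP5MC1 (25.1 CPM per kb), ATP5MC3 (20.7 CPM per kb) and ATP5MC2 (16.0 CPM per kb). The order depends on the lengths, which join all annotated exons of a gene (6780 bases for ATP5MC3 and 2615 bases for ATP5MC1). By mean CPM ATP5MC3 stood highest at 141, with ATP5MC1 at 65.2 and ATP5MC2 at 63.5.

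Promoter sequences from RefSeq (GRCh38.p14) were used for the 61 of the 84 members with a single promoter under their name, 3 of them through an older symbol. Members with none or several were left out, while the set of all promoters had no such limit. In the 300 bases from 250 before to 50 after the start, the core motif of NRF1 (GCATGCGC, either strand) was found in 12 of 61 members (19.7%) and in 3.05% of all 35116 promoters of the table. The ETS family core bound by GABP (CCGGAAG) was found in 18 (29.5%, against 10.3% of all), and the YY1 core (AAGATGGC) in 11 (18%, against 2.89%). At least 1 of the 3 was in 32 members (52.5%, against 14.9%). The windows of NDUFA6 and the noncoding NDUFA6-DT overlap, and the same NRF1 and YY1 sites were counted for both. The ETS and YY1 cores can overlap, since one ends and the other begins with AAG. A match describes these letters only. The 250 bases before the start are printed for 4 members, the pair of isoforms COX6B1 and COX6B2, UQCRH, which was called higher in more comparisons than any other coding member, and ATP5MC1, one of the 3 members called lower most often. Capitals mark an ETS core, here on the minus strand.
COX6B1, chr19:35648073-35648322, plus strand: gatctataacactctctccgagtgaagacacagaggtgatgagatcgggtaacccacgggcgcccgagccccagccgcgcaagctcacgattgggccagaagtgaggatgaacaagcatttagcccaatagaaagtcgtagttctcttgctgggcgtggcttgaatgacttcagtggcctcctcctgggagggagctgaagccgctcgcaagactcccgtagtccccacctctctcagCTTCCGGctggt
COX6B2, chr19:55354720-55354969, minus strand: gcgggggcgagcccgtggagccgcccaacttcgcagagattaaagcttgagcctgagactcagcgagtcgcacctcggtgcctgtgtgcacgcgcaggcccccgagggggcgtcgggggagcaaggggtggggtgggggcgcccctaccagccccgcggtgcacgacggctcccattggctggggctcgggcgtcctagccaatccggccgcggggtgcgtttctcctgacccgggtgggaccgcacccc
UQCRH, chr1:46303448-46303697, plus strand: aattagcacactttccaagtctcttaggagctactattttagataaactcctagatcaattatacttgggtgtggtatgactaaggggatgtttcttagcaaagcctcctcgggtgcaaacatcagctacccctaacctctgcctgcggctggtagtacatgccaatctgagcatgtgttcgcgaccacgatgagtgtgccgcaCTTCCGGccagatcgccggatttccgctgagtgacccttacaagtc
ATP5MC1, chr17:48892537-48892786, plus strand: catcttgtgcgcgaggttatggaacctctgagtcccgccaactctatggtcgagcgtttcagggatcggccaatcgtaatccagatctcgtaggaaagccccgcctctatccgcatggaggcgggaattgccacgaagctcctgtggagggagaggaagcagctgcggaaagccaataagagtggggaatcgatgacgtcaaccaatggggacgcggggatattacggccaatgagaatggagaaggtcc
The ETS core began 12 bases before the start in COX6B1 and 46 bases before it in UQCRH, and none of the 3 motifs was in the window of COX6B2 or ATP5MC1. The COX6B2 stretch was rich in G and C (72.8%), and that of UQCRH was not (49.2%).

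Whole CKI was compared with UT in 3 sets of libraries that share none. A member was called DE at an adjusted p under 0.05 by the quasi-likelihood test of edgeR, with p-values adjusted after Benjamini and Hochberg over all genes tested. Values per library are CPM after TMM scaling within a time and batch, in the order of the replicate numbers. After 24 h, 2 members were higher (15.3% of all genes tested were) and 8 were lower (14.8% of all). After 48 h in batch 1, 6 members were higher (27% of all) and 22 lower (27% of all). After 48 h in batch 2, 25 members were higher (32.3% of all) and 18 lower (34.2% of all). The median log2 fold change over the 84 was -0.12, -0.05 and 0.04 in that order, and that of all genes tested was within 0.03 of 0. In bulk RNA, fewer cells with a transcript and less transcript per cell cannot be told apart.

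Under CKI most lower calls were shared by both batches at 48 h, and most higher calls of batch 2 were not. Of the 22 called lower at 48 h in batch 1 and the 18 in batch 2, 17 were shared, or 77.3% and 94.4% of the lists (87.1% and 69.4% for all genes tested in both). Of the 6 and 25 called higher, 5 were shared, or 83.3% and 20% (81.2% and 69.2% for all genes). No member was called in opposite directions. At 24 h 7 of the 8 lower members were among those lower at 48 h in each batch, the exception being ATP5S, and both higher members were higher in all 3.

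The members lower in all 3 CKI comparisons included the complex I subunits NDUFA9, NDUFA10 and NDUFB10, the Rieske iron-sulfur protein UQCRFS1 and the subunit c genes ATP5MC1 and ATP5MC2. Without the unnumbered CKI library at 24 h, only ATP5MC2 of these kept its lower call at that time. NDUFA9, an accessory subunit at the join of the matrix and membrane arms, had 56.6, 50.4 and 46.8 CPM in UT at 24 h and 32.1, 34.6 and 40.0 CPM with CKI. In batch 2 at 48 h it had 40.4, 40.8 and 41.1 CPM in UT and 25.8, 27.7 and 25.8 CPM with CKI. The groups did not overlap in either case, and the log2 fold changes were -0.53 (SE 0.16, adjusted p = 0.0173) and -0.63 (SE 0.06, adjusted p = 8.83e-11). ATP5MC2 fell by the largest amount among subunits in all 3 comparisons, from 66.6, 77.5 and 73.0 CPM in UT to 52.8, 45.0 and 47.6 CPM at 48 h in batch 1, a log2 fold change of -0.58 (SE 0.11, adjusted p = 0.000158).

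UQCRH, the hinge protein of complex III that helps cytochrome c dock, was the coding member higher in all 3 CKI comparisons. It had 168, 160 and 140 CPM in UT at 24 h and 228, 197 and 224 CPM with CKI, and at 48 h in batch 2 it had 173, 173 and 161 CPM in UT and 229, 249 and 240 CPM with CKI. Its log2 fold changes were 0.47 at 24 h, 0.38 at 48 h in batch 1 and 0.50 at 48 h in batch 2, with an SE of 0.07 in the last. The noncoding NDUFA6-DT was the other, at 1.59, 1.18 and 1.35 CPM in UT and 4.69, 4.70 and 3.73 CPM with CKI at 24 h, while NDUFA6 beside it was not called in any of the 3. The authors' counting is not stated to use strand, so reads of neighbours on opposite strands may not be separated.

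Other members rose with CKI in batch 2 alone among the calls, among them NDUFB3, a small membrane subunit of complex I, and NDUFA2, though with library sizes alone both were also called higher in batch 1 (0.32 and 0.25). NDUFB3 had 48.8, 44.7 and 40.3 CPM in UT and 62.0, 65.1 and 64.3 CPM with CKI in batch 2 (log2 fold change 0.52, SE 0.06, adjusted p = 4.21e-09), and its value in batch 1 was 0.23. The difference between the batches was called for 4 members (8.9% of all genes were called in that comparison), NDUFA5 (0.37, SE 0.09, adjusted p = 0.00646), NDUFA12 (0.32), NDUFS3 (0.30) and SDHA (0.28). NDUFB3 and NDUFA2 were not among them. That count was 10 without UT replicate 1 of batch 1, 2 without UT replicate 1 or CKI replicate 2 of batch 2, and 1 without UT replicate 2 or 3 or CKI replicate 2 or 3 of batch 1 or without UT replicate 3 or CKI replicate 3 of batch 2.

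The 24 h counts with CKI rested on few libraries. Without CKI replicate 1, the unnumbered library, 4 members were called (NDUFA6-DT and UQCRH higher, ATP5MC2 and ATP5S lower), and 4 without UT replicate 1 or without CKI replicate 2, and 6 without UT replicate 2. At 48 h, with library sizes alone in place of TMM scaling, the split was 10 higher and 14 lower in batch 1 and 38 higher and 13 lower in batch 2, and the median in batch 1 turned to 0.03. With all 54 libraries in 1 fit, CKI had 21 calls at 24 h and 18 in batch 2 at 48 h. Fibroblast genes summed to 46.6 to 52.1 CPM with CKI and 70.8 to 74.1 CPM in UT in batch 1 at 48 h, and to 40.5 to 41.9 CPM with CKI in batch 2, and their part was not tested.

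**Figure D1:**
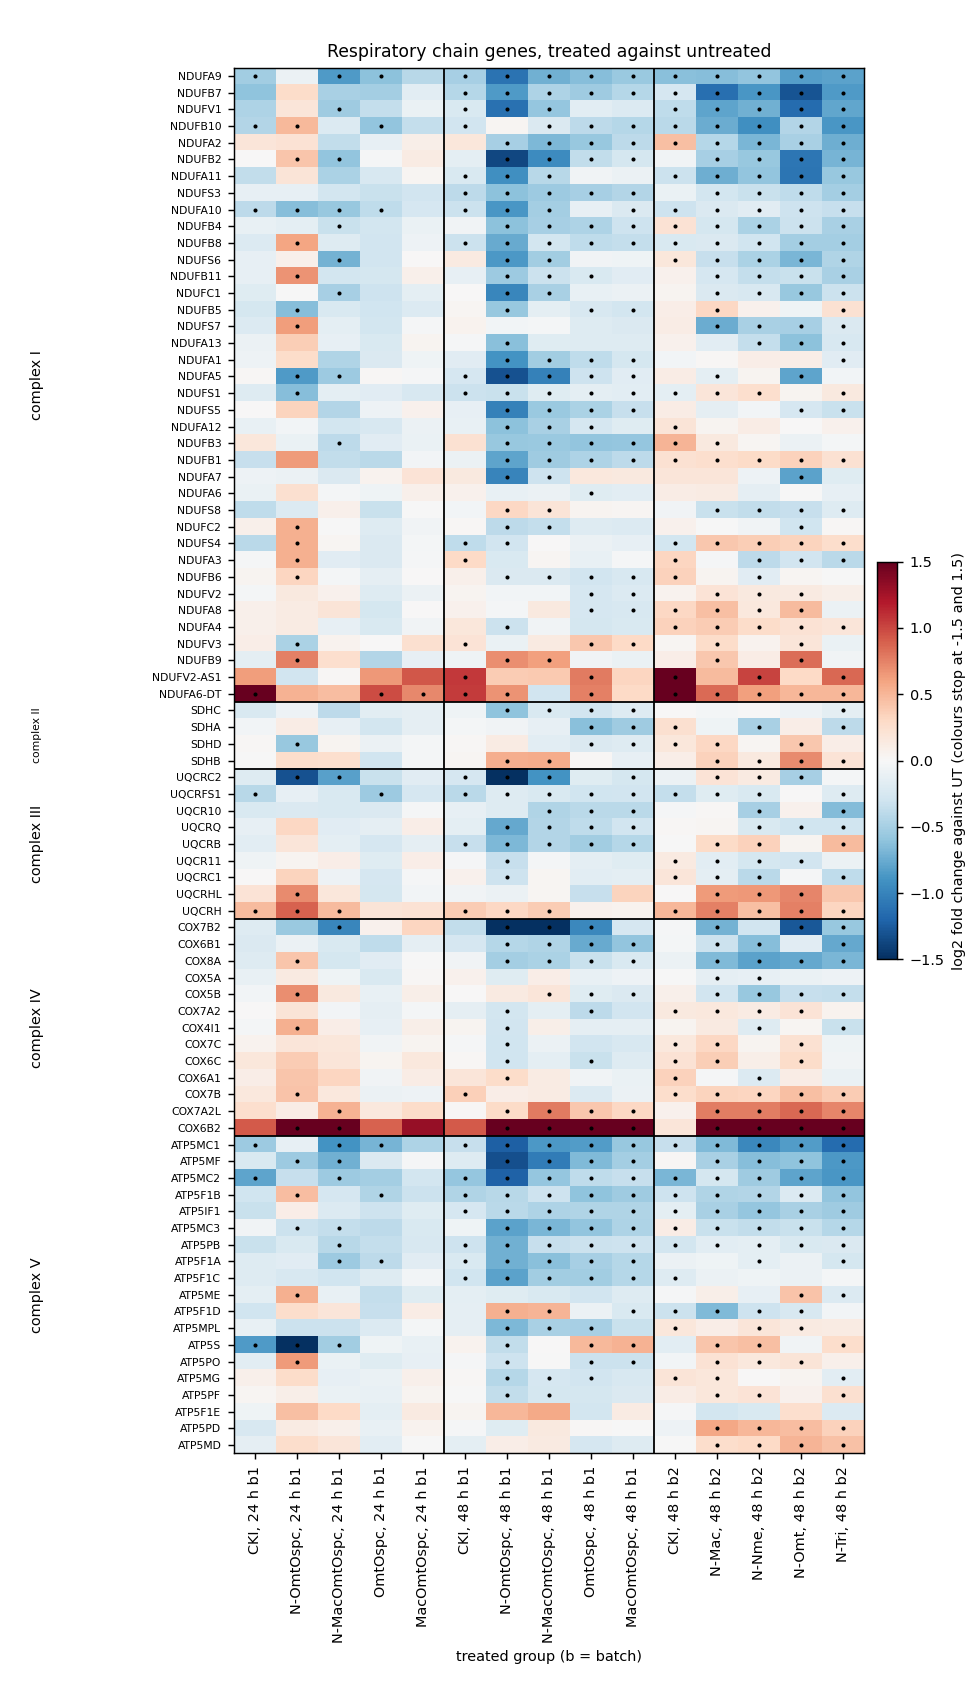
Log2 fold change against untreated cells of the same time and batch for members (rows, grouped by complex) in the 15 treated groups (columns), on a color scale that stops at 1.5 in either direction, with a dot for each call. NDUFA9, ATP5MC1 and ATP5MC2 are below 0 in all 15 columns, UQCRH and COX7A2L are above 0 in all 15, and columns of the mixtures at 48 h hold more low values than the CKI columns.

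At 48 h in batch 1 all 4 mixtures gave more lower than higher calls, under TMM scaling and under both other scalings tried. With N-OmtOspc 9 members were higher (38.3% of all genes tested) and 56 lower (38.3% of all), with a median of -0.38. With N-MacOmtOspc 8 were higher (35.8% of all) and 46 lower (35.3% of all), with a median of -0.24. The N-MacOmtOspc libraries spread, replicate 2 lying farthest from its group mates of all 48 h libraries (SD 0.478), with members at a median of -0.21 from them and replicate 3 at 0.28. With OmtOspc 6 were higher (29.1% of all) and 47 lower (28.7% of all), with a median of -0.27, and with MacOmtOspc 4 were higher (25.7% of all) and 42 lower (25.5% of all), with a median of -0.22. Thus the share of members called lower was above that of all genes and the share called higher was below it in each. With N-OmtOspc 35 of the 65 called members passed 1.5-fold, against 2 of 46 with MacOmtOspc. The share of all called genes past 1.5-fold was not computed, so this contrast is not read as particular to members. Among called rows named for mitochondrial ribosome proteins 33 of 64 passed it with N-OmtOspc and 6 of 43 with MacOmtOspc. With library sizes alone the lower calls were 28 for OmtOspc and 22 for MacOmtOspc, and without UT replicate 2 MacOmtOspc had 29 calls in all. Fibroblast genes summed to 85.5 to 94.6 CPM with N-OmtOspc and 70.8 to 74.1 CPM in UT, and to 28.5 to 38.0 CPM with the other 3 mixtures. Their part in the members' values was not tested.

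In batch 2 the mixtures lacking 1 compound gave calls in both directions. With N-Mac 29 members were higher (36.9% of all) and 33 lower (35.4% of all). With N-Nme 23 were higher (35.9% of all) and 40 lower (35.4% of all). With N-Omt 23 were higher (38.4% of all) and 37 lower (39.9% of all), and with N-Tri 17 were higher (34.8% of all) and 42 lower (37.4% of all). The medians were -0.01, -0.13, -0.08 and -0.16. With library sizes alone the splits were 33 higher and 25 lower for N-Mac, whose median turned to 0.06, 29 and 32 for N-Nme, and 23 and 33 for N-Tri. With all 54 libraries in 1 fit N-Nme had 39 calls. Fibroblast genes summed to 31.7 to 42.2 CPM in UT of batch 2, 15.1 to 23.6 CPM with N-Nme, 20.3 to 20.9 CPM with N-Tri and 26.3 to 35.8 CPM with N-Mac and N-Omt, and their part was not tested.

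At 24 h the mixtures differed more from each other. With N-OmtOspc 20 members were higher (31.1% of all) and 11 lower (30.9% of all), with a median of 0.16, but with library sizes alone, which shifted all genes by -0.31 in this group, the split was 3 higher and 28 lower and the median -0.15. With N-MacOmtOspc 3 were higher (23.2% of all) and 19 lower (21.8% of all). With OmtOspc 1 was higher (9.03% of all) and 8 lower (7.72% of all), and with MacOmtOspc 1 was higher (5.61% of all) and 0 lower (4.84% of all), with 10 members at an unadjusted p under 0.05 in either direction and 3 calls by DESeq2. Without the 3 unnumbered libraries the totals were 37, 25, 10 and 2. The count for N-OmtOspc was 19 without UT replicate 3, that for N-MacOmtOspc was 14 without its replicate 3, and that for MacOmtOspc was 0 without any single library. For OmtOspc it was 29 without its replicate 1, 3 without its replicate 2, and 2 without its replicate 3 or UT replicate 1 or 2.

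Over the 15 comparisons with UT, which share the untreated libraries within each time and batch, there were 177 higher calls (14% of 1260 tests) and 429 lower calls (34%), or 143 and 415 among the 78 subunit rows. Over all genes 27.9% of tests were called higher and 27.8% lower, which is the background of the summed counts by complex and list. With library sizes alone the members had 196 higher and 370 lower calls. By member, 28 had lower calls alone, 11 had higher calls alone, 44 had both and ATP5F1E, at a mean of only 1.73 CPM, had none. The share of members called higher was above that of all genes in 0 of the 15 comparisons, and the share called lower was above it in 10. Members are abundant transcripts, with a median of 91.5 CPM against 22.0 to 23.4 CPM over all genes tested.

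**Figure D2:**
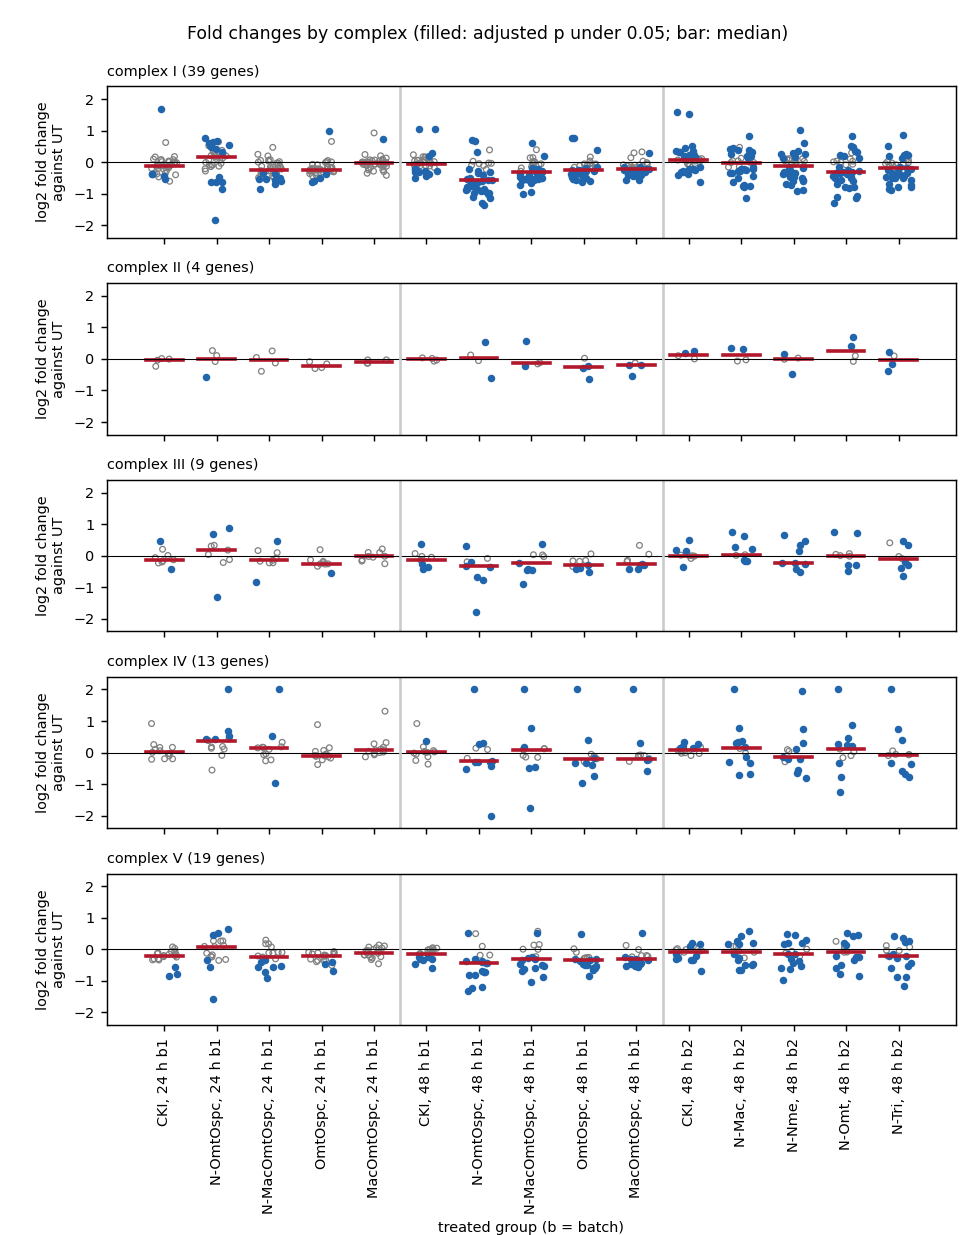
Log2 fold change against untreated cells (vertical axis) for each member (points) in the 15 treated groups (horizontal axis), in 1 panel per complex with a bar at the median. Filled points passed an adjusted p of 0.05, and values beyond 2 in either direction, such as those of COX6B2, are drawn at 2. The median of complex I reached -0.57 and that of complex V -0.42, both with N-OmtOspc at 48 h.

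Complex I, which oxidises NADH, had 72 higher and 221 lower calls over the 15 comparisons (12.3% and 37.8% of its tests, against 27.9% and 27.8% over all genes). Its median ran from -0.57 with N-OmtOspc at 48 h to 0.18 with the same mixture at 24 h (-0.14 with library sizes alone). With N-OmtOspc at 48 h 28 of 39 rows were lower, against 38.3% of all genes. The higher calls over the 15 comparisons include 11 of NDUFA6-DT and 5 of NDUFV2-AS1, both noncoding. NDUFV2-AS1, at 0.515 to 1.01 CPM in the untreated groups, reached the minimum of 1 CPM with the help of treated groups. Its higher calls are therefore favoured by the rule that chose members. NDUFA4, a subunit of complex IV, held 5 higher calls and 1 lower call. The 7 core subunits, which carry the electron path, had a median below 0 in all 15 under TMM and both other scalings, with 9 higher and 47 lower calls (8.57% and 44.8%).

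Accessory subunits of complex I, 29 rows, had 42 higher and 173 lower calls (9.66% and 39.8%, against 27.9% and 27.8% over all genes), and they did not all move together. NDUFA9 and NDUFA10 were each lower in 13 comparisons. With N-OmtOspc at 48 h NDUFA9 had 21.3, 19.5 and 18.1 CPM against 42.3, 41.2 and 43.8 CPM in UT (log2 fold change -1.11, SE 0.09, adjusted p = 1.79e-10). Every treated library lay below every untreated one. NDUFB7 was lower in 10 and fell most with N-Omt, from 80.6, 73.5 and 77.7 CPM to 28.9, 32.1 and 34.0 CPM (-1.29, SE 0.07, adjusted p = 1.73e-16). NDUFB9 went the other way: with N-Omt it rose from 23.6, 26.9 and 24.5 CPM to 45.2, 46.0 and 42.2 CPM (0.83, SE 0.08, adjusted p = 1.23e-10). NDUFB9 was also higher with N-OmtOspc and N-MacOmtOspc at 48 h, by 0.70 and 0.61.

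Complex II, which oxidises succinate and feeds electrons to coenzyme Q, had 10 higher and 12 lower calls (16.7% and 20%, both below the 27.9% and 27.8% of all genes), or 15 and 10 with library sizes alone, and its 4 genes differed. SDHB, the iron-sulfur subunit, was higher in 6 comparisons and lower in 0. With N-Omt it had 86.3, 84.8 and 77.6 CPM against 50.1, 53.4 and 49.0 CPM in UT (0.71, SE 0.06, adjusted p = 4.73e-13), and with N-OmtOspc at 48 h 90.3, 86.9 and 85.3 CPM against 58.6, 60.6 and 60.8 CPM (0.54, SE 0.08). SDHA, the flavoprotein that holds the succinate site, was lower with OmtOspc at 48 h, at 156, 156 and 148 CPM against 225, 242 and 242 CPM (-0.62, SE 0.07, adjusted p = 6.07e-08), where SDHB was at 0.02. The membrane anchor SDHC was lower in 5 comparisons, reaching -0.60 with N-OmtOspc at 48 h, and the other anchor SDHD was higher in 3 and lower in 3. With library sizes alone SDHC was lower in 3, and SDHD was higher in 6 and lower in 2.

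Complex III had 22 higher and 43 lower calls (16.3% and 31.9%, the second near the 27.8% of all genes), and its largest changes were in UQCRC2 and UQCRH. UQCRC2, a core protein of the matrix side, had 70.1, 75.2 and 70.5 CPM in UT at 48 h in batch 1 and 19.8, 20.5 and 22.1 CPM with N-OmtOspc, a log2 fold change of -1.79 (SE 0.09, adjusted p = 2.29e-14). It was at -1.31 with that mixture at 24 h and at -0.89 with N-MacOmtOspc at 48 h, was lower by 0.49 with N-Omt (82.4, 83.2 and 90.3 CPM with N-Mac, 53.3, 54.4 and 50.4 CPM with N-Omt and 72.9, 76.4 and 73.6 CPM in UT), and was higher by 0.20 with N-Mac. Its partner UQCRC1 was at -0.32 with N-OmtOspc at 48 h. UQCRH was higher in 11 comparisons, the exceptions being OmtOspc and MacOmtOspc at both times, where it was at 0.05 to 0.21. With N-Mac it had 303, 263 and 286 CPM and with N-Omt 272, 293 and 287 CPM (0.75 in both, SE 0.07). The copy UQCRHL, at 1.05 CPM, cannot be told apart from UQCRH with certainty. UQCRHL was at 0.801 to 1.05 CPM in the untreated groups and reached the minimum of 1 CPM with the help of treated groups. Its 4 higher calls are therefore favoured by the rule that chose members.

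**Figure D3:**
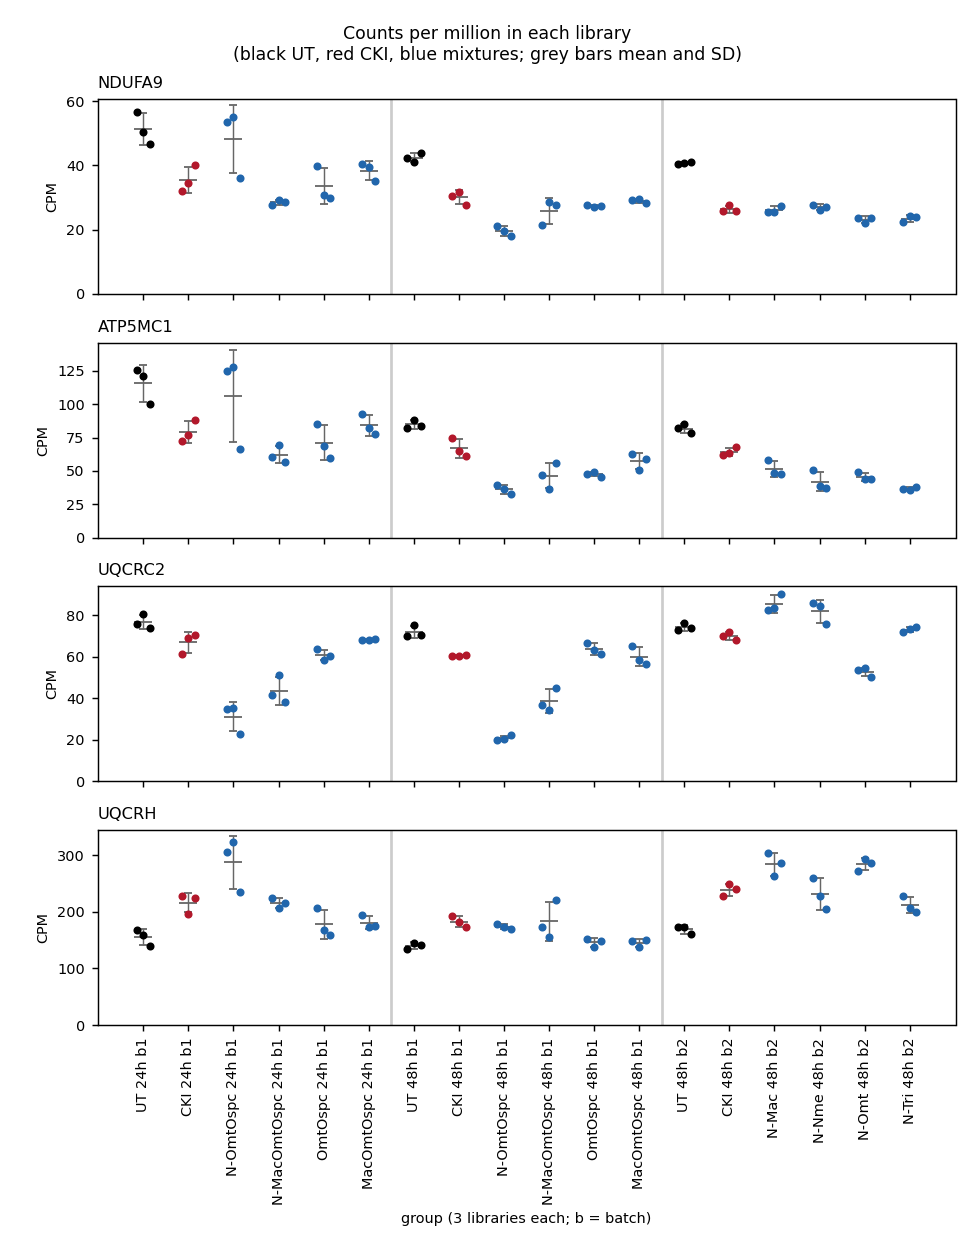
CPM (vertical axes, from 0) of NDUFA9, ATP5MC1, UQCRC2 and UQCRH in each of the 54 libraries (points; black UT, red CKI, blue mixtures) by group (horizontal axis), with grey bars for mean and SD of 3 libraries. UQCRC2 lies between 19.8 and 22.1 CPM in the 3 N-OmtOspc libraries at 48 h and between 70.1 and 75.2 CPM in the untreated ones, and NDUFA9 and ATP5MC1 lie below the untreated range in every treated group at 48 h.

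Complex IV, cytochrome c oxidase, had 42 higher and 39 lower calls (21.5% and 20%, both below the 27.9% and 27.8% of all genes), and a median between -0.28 and 0.38. Of the higher calls, 10 were of COX6B2 and 9 of COX7A2L. COX6B2, at 0.104 to 0.285 CPM in the untreated groups, passed the minimum of 1 CPM only through the mixtures where it was high. Its higher calls are therefore favoured by the rule that chose members. COX8A, the smallest ubiquitous subunit of complex IV, was lower in 8 comparisons, all at 48 h with mixtures. It had 175, 160 and 173 CPM with N-Nme against 295, 310 and 282 CPM in UT (-0.80, SE 0.05, adjusted p = 2.33e-14), and was at -0.09 with CKI. At 24 h with N-OmtOspc it was higher by 0.42, a call lost with library sizes alone, where the value was 0.10. COX7A2L, known as a factor that helps complexes III and IV join in supercomplexes, was higher in 9 comparisons and lower in 0. With N-Omt it had 235, 237 and 237 CPM against 131, 123 and 137 CPM in UT (0.86, SE 0.05, adjusted p = 2.18e-15), and it was at 0.02 and 0.06 with CKI at 48 h.

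The isoforms COX6B1 and COX6B2 moved in opposite directions. COX6B1 was lower in 7 comparisons and fell most with N-Tri, from 152, 163 and 142 CPM to 95.1, 87.3 and 85.5 CPM (-0.77, SE 0.09, adjusted p = 2.17e-09). COX6B2 was higher in 10 of the 15 comparisons, in each mixture at 48 h and in N-OmtOspc and N-MacOmtOspc at 24 h. Its calls, ratios and p-value describe a row that became a member only through mixtures where it was high. In UT at 48 h in batch 1 it had 0.0822, 0.0946 and 0.134 CPM, 7 counts in all, and with N-OmtOspc 10.3, 8.78 and 11.5 CPM, 677 counts in all. That is a 97.9-fold ratio of the scaled counts, with a 95% interval from 47.3 to 244 that covers counting error only (fitted log2 fold change 6.55, SE 0.31, adjusted p = 1.19e-14). The ratio was 33.1 with N-MacOmtOspc, 9.49 with OmtOspc and 5.80 with MacOmtOspc.

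COX6B2 was not called with whole CKI. Its counts were 20 with CKI and 10 in UT at 24 h, 15 and 7 at 48 h in batch 1, and 21 and 20 in batch 2, with intervals of the ratio from 0.875 to 4.69, from 0.743 to 5.62 and from 0.584 to 2.20. In batch 2 it had 4.27, 4.42 and 3.84 CPM with N-Omt, 2.59, 2.82 and 2.23 CPM with N-Mac, 1.39, 0.996 and 1.72 CPM with N-Tri and 1.11, 1.33 and 0.953 CPM with N-Nme, against 0.329, 0.223 and 0.302 CPM in UT. All 12 libraries of these mixtures were above the 6 of CKI and UT. Even at its highest, a group mean of 2.67 CPM per kb, COX6B2 stayed far under the lowest group mean of COX6B1, 95.4 CPM per kb.

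COX7B2 moved against COX6B2. It had 44 counts with N-OmtOspc at 48 h and 179 in UT, a ratio of 0.249 with an interval from 0.175 to 0.348, and was lower in 7 comparisons. Its isoform COX7B was higher in 7, among them CKI at 48 h in both batches (0.36 and 0.27). COX4I1, COX6A1, COX7A2 and NDUFA4, the forms found in most tissues, lay within 0.54 of 0 on the log2 scale in all 15.

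**Figure D4:**
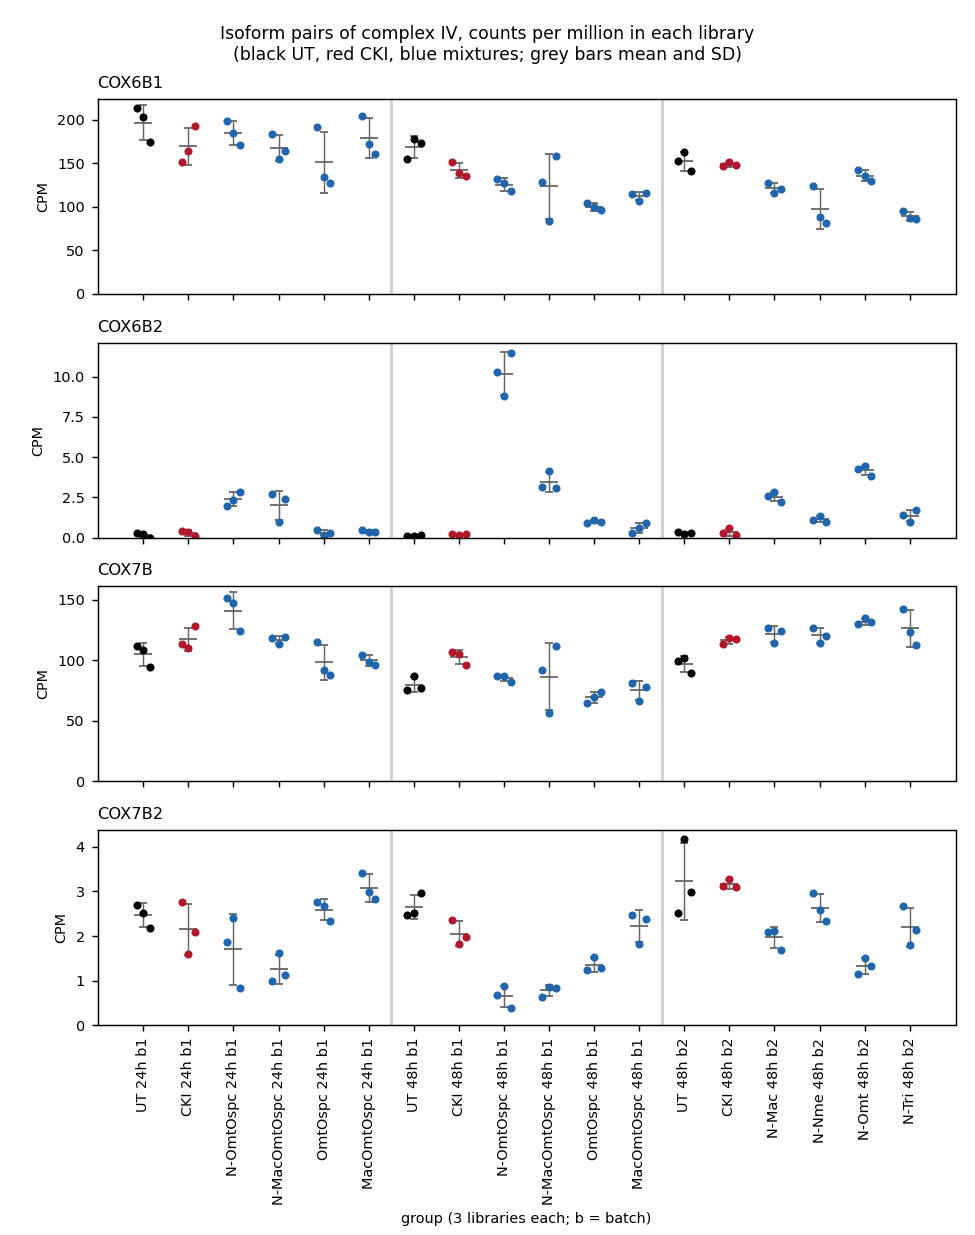
CPM (vertical axes, linear, from 0, scaled by panel) of COX6B1, COX6B2, COX7B and COX7B2 in each of the 54 libraries (points; black UT, red CKI, blue mixtures) by group (horizontal axis), with grey bars for mean and SD of 3 libraries. COX6B2 lies at or below 0.575 CPM in every untreated and CKI library and between 8.78 and 11.5 CPM with N-OmtOspc at 48 h, while COX6B1 is at 81.1 CPM or more throughout.

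Complex V had 31 higher and 114 lower calls (10.9% and 40%, against 27.9% and 27.8% over all genes), and rotor and catalytic head both held lower calls. The 3 subunit c genes had a median below 0 in all 15 comparisons, with 1 higher and 35 lower calls (2.22% and 77.8%). ATP5MC1 was lower in 13. It had 82.2, 88.4 and 83.9 CPM in UT at 48 h in batch 1, 39.1, 36.6 and 32.8 CPM with N-OmtOspc (-1.23, SE 0.11, adjusted p = 1.10e-09) and 47.8, 48.9 and 45.8 CPM with OmtOspc (-0.84). In batch 2 it had 81.9, 84.9 and 78.5 CPM in UT and 36.5, 35.6 and 38.1 CPM with N-Tri (-1.15, SE 0.08, adjusted p = 4.54e-14). None of these treated libraries reached the untreated range.

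The 5 subunits of the F1 head had 3 higher and 31 lower calls (4% and 41.3%). Of these ATP5F1E, with 19 to 69 counts per library, had no call. ATP5F1B, the catalytic beta subunit, had 513, 509 and 504 CPM in UT at 48 h in batch 1 and 348, 329 and 329 CPM with OmtOspc (-0.60, SE 0.07, adjusted p = 8.88e-08). ATP5MF, subunit f of the membrane part, was at -1.32 with N-OmtOspc at 48 h (SE 0.19), and its row overlaps a readthrough transcript. The 4 subunits of the peripheral stalk had 11 higher and 16 lower calls (18.3% and 26.7%, against 27.9% and 27.8% over all genes). Among them ATP5PD rose in all 4 mixtures of batch 2, most with N-Mac, from 114, 115 and 104 CPM to 168, 161 and 172 CPM (0.59, SE 0.06, adjusted p = 2.32e-10). ATP5MD, a small membrane subunit, also rose in those 4, by 0.26 to 0.51.

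Each mixture was next compared with whole CKI at the same time and dose, at 48 h, to ask whether taking out compounds changed the response. With N-OmtOspc 8 members were higher than with CKI (36% of all genes tested) and 54 lower (37.1% of all). With N-MacOmtOspc 11 were higher (33.1% of all) and 36 lower (34.1% of all), a split of 6 and 51 with library sizes alone. With OmtOspc 7 were higher (25.9% of all) and 35 lower (25.8% of all), and with MacOmtOspc 5 were higher (24% of all) and 27 lower (23.6% of all). In batch 2, 22 were higher (35.1% of all) and 37 lower (34.3% of all) with N-Mac, 16 higher (35.8% of all) and 39 lower (35.7% of all) with N-Nme, 16 higher (37.1% of all) and 41 lower (39.2% of all) with N-Omt, and 12 higher (34.5% of all) and 50 lower (36.9% of all) with N-Tri. Medians were between -0.38 (N-OmtOspc) and -0.02 (N-Mac). The 4 comparisons of a batch share their CKI libraries. The count for OmtOspc was 27 without CKI replicate 1, and that for MacOmtOspc was 19 without CKI replicate 1, 20 without its own replicate 2 and 21 without its replicate 3.

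The median difference of complex I from CKI was below 0 in all 8 mixtures, from -0.53 with N-OmtOspc to -0.13 with MacOmtOspc. In these 2 mixtures 30 and 14 of 39 rows were lower, against 37.1% and 23.6% of all genes. With OmtOspc and MacOmtOspc it was the nearest to 0 of the 5 complexes. The median of complex V was -0.40 with N-OmtOspc and 0.02 with N-Nme. NDUFA2, an accessory subunit of complex I, was higher than UT with CKI in batch 2 and lower than UT with every mixture there. It had 66.1, 73.1 and 67.1 CPM in UT, 91.6, 95.5 and 95.9 CPM with CKI and 43.9, 41.2 and 39.2 CPM with N-Tri, and N-Tri differed from CKI by -1.19 on the log2 scale (SE 0.07, adjusted p = 1.53e-15). Its differences from CKI were -0.88 with N-Mac, -1.14 with N-Nme and -0.94 with N-Omt.

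NDUFB3 was lower than with CKI in all 8 mixtures. It had 56.5, 48.9 and 49.9 CPM with CKI at 48 h in batch 1, 29.0, 29.0 and 29.9 CPM with OmtOspc and 30.1, 28.8 and 29.4 CPM with MacOmtOspc (-0.82 and -0.81, SE 0.11 in both). COX7A2L was higher than with CKI in all 8, by 0.27 to 0.79. COX6B2 was higher than with CKI in all 8 too, by fitted log2 values from 1.56 with MacOmtOspc to 5.63 with N-OmtOspc. The rule that chose members favours these differences of COX6B2 as well. UQCRC2 split the mixtures: against CKI it was at -1.54 with N-OmtOspc, -0.64 with N-MacOmtOspc and -0.41 with N-Omt, at 0.07 and -0.01 with OmtOspc and MacOmtOspc, and at 0.29 and 0.22 with N-Mac and N-Nme.

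The effect against UT was compared between 24 and 48 h in batch 1. The difference was called for 1 member with CKI (0.391% of all genes), 49 with N-OmtOspc (34.2% of all), 0 with N-MacOmtOspc (7.35% of all), 1 with OmtOspc (8.06% of all) and 1 with MacOmtOspc (2.59% of all). For N-MacOmtOspc 4 members had an unadjusted p under 0.05, and DESeq2 called 2. With N-OmtOspc 6 of the 49 differences were upward and 43 downward, with a median of -0.47. With library sizes alone 32 were called, 10 upward and 22 downward, with a median of -0.11. NDUFB2, an accessory subunit of complex I, had the largest downward difference. It had 190, 188 and 163 CPM in UT and 274, 276 and 170 CPM with N-OmtOspc at 24 h, a rise carried by 2 of the 3 libraries, and 135, 168 and 160 CPM in UT and 64.0, 58.6 and 57.0 CPM with it at 48 h, a difference of -1.75 (SE 0.21, adjusted p = 2.73e-07).

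N-OmtOspc replicate 3 lay below its group mates in many members at 24 h, ATP5MC1 being at 125, 128 and 66.4 CPM. Without it the count of differences was 58 (4 upward and 54 downward), and without UT replicate 3 at 24 h it was 35. ATP5S differed upward, by 1.21 (SE 0.18), with an effect of -1.56 at 24 h and -0.37 at 48 h. ATP5S, the coupling factor B, was also the single member called with CKI (0.91), OmtOspc (0.58) and MacOmtOspc (0.65). It had 11.4, 11.2 and 11.1 CPM in UT and 5.94, 5.78 and 7.00 CPM with CKI at 24 h, and 6.45, 8.89 and 8.70 CPM in UT and 7.87, 9.02 and 7.91 CPM with CKI at 48 h. With OmtOspc and MacOmtOspc ATP5S was at -0.07 and -0.11 at 24 h and was higher at 48 h, by 0.49 and 0.52. These counts of 1 rested on single libraries. The count with CKI was 0 without UT replicate 1 or CKI replicate 2 of 48 h. The count with OmtOspc was 0 without UT replicate 1 or 2 or OmtOspc replicate 3 of 24 h, or without UT replicate 1 or OmtOspc replicate 1 or 3 of 48 h, 3 without OmtOspc replicate 1 and 2 without OmtOspc replicate 2 of 24 h. The count with MacOmtOspc was 0 without any one of its 12 libraries except MacOmtOspc replicate 3 of 24 h and UT replicate 2 of 48 h, and that with N-MacOmtOspc was 1 without its replicate 1 of 24 h or UT replicate 2 of 48 h.

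**Figure D5:**
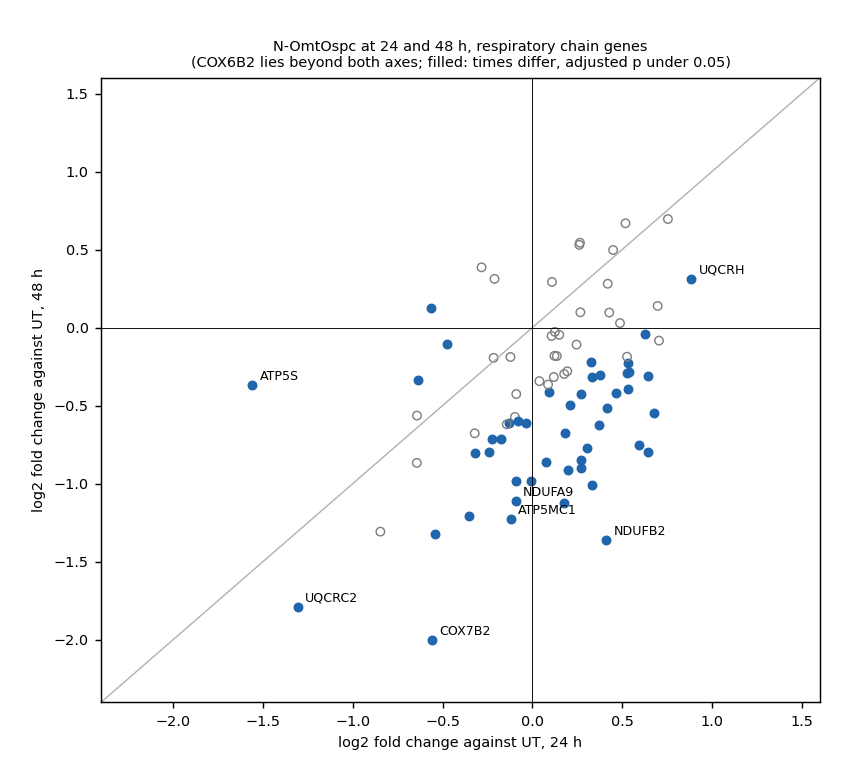
Log2 fold change with N-OmtOspc against untreated cells at 24 h (horizontal axis) and at 48 h (vertical axis) for members (points), with the diagonal of equal effect. Filled points are members whose effects at the 2 times differed at an adjusted p under 0.05. COX6B2, at 3.93 and 6.55, lies outside the axes. Most points lie below the diagonal, NDUFB2 among the farthest, and ATP5S lies above it.

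Other genes of the pathway were taken from lists, with TMM scaling alone. Of 48 assembly factors found, 172 calls over the 15 comparisons were higher and 197 lower (23.9% and 27.4%, against 27.9% and 27.8% over all genes), with list medians between -0.17 and 0.10. ACAD9 and NDUFAF6, both needed to build complex I, were lower in 13 and 15 comparisons with medians of -0.96 and -0.62, and COX19 and NDUFAF1 were higher in 12 and 9 with medians of 0.58 and 0.45. Among 13 genes of electron carriers and coenzyme Q synthesis (46 higher and 70 lower calls, or 23.6% and 35.9%), COQ10B, a coenzyme Q binding protein, was higher in all 15 with a median of 0.70, and PDSS1 and COQ2, which make and attach the side chain of coenzyme Q, were each lower in 13. Among 12 genes of the tricarboxylic acid cycle there were 16 higher and 92 lower calls (8.89% and 51.1%), and the list median was below 0 in all 15. SUCLG2 and FH were lower in 13 and 14, with medians of -1.11 and -0.48.

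Among 13 regulators of mitochondrial gene expression there were 66 higher and 39 lower calls (33.8% and 20%, against 27.9% and 27.8% over all genes). PPARGC1A, the coactivator known for driving mitochondrial biogenesis, was higher in 10 and lower in 0 with a median of 1.02, and NRF1, whose core motif is given for the promoters, was lower in 8 and higher in 0 with a median of -0.28. With whole CKI the 13 regulators leaned the other way. They had 0 higher and 3 lower calls at 24 h (15.3% and 14.8% of all genes). At 48 h they had 0 and 5 in batch 1 (27% and 27% of all) and 4 and 8 in batch 2 (32.3% and 34.2% of all). Their medians were -0.25, -0.31 and -0.33 in that order. Of 83 rows named for mitochondrial ribosome proteins, 81 or 82 were tested, with 191 higher and 500 lower calls (15.6% and 40.8%) and a list median below 0 in all 15. Of these rows 5 are antisense, divergent or pseudogene transcripts and not ribosome genes, and they held 29 of the higher calls, 12 of them in MRPL23-AS1. MRPL1 and MRPL11 were each lower in 14, and MRPS24 was higher in 11. All these lists share libraries with the members.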

How the data were processed

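Poly-A RNA of 54 libraries had been sequenced as 150-base pairs. The deposited tables hold whole-number counts per gene that the authors made from trimmed reads; the submitters' processing notes name FastQC 0.11.4, Trim Galore 0.3.7, STAR 2.5.3a, Subread 1.5.2 with featureCounts, edgeR 3.22.3 and the hg19 build. Whether counting used strand is not given in the sources used here. Totals were 17673500 to 26138900 counts per library.

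Groups came from the labels. For each time and batch (18 libraries, 6 groups) low genes were removed by filterByExpr, TMM factors were computed, and the quasi-likelihood test of edgeR 4.0.16 (R 4.3.3) was run, with Benjamini-Hochberg adjustment over all genes and calls at an adjusted p under 0.05. Time and batch differences were interaction terms. Alternatives were RLE size factors, library sizes alone, no filter, other sets of libraries in the fit, the replicate number as a block, DESeq2 1.42.0 and leaving out libraries. The steps were run on simulated data with a smaller spread than the 24 h libraries and far fewer changed genes than were called against UT. That run therefore cannot judge the calls at 24 h or the scaling where many genes change. Count ratios carry exact 95% intervals for counting error alone. Levels per kilobase used the joined length of all exons annotated to a gene by GENCODE on GRCh38, not hg19. These can exceed the length of any single transcript.

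Members and gene lists were chosen with earlier results of these data known. Members with values were those with the highest and lowest medians in a complex, the most often called, the largest changes with CKI, isoforms and the largest differences between mixtures, times and batches, and any other is said to be so chosen. The values of 1 member, which stays in the counts and medians, are not reported here, and it is left out of the heatmap and of the plot of both times.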

Additional observations from a re-analysis of the deposited data

Results flagged for a closer look

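The effect of a treatment differed between 24 and 48 h, by an interaction term in edgeR's quasi-likelihood fit, for 49 members with N-OmtOspc, among them COX6B2 (2.63 on the log2 scale, adjusted p = 0.0221), COX7B2 (-1.42, adjusted p = 0.00558) and NDUFB2 (-1.75, adjusted p = 2.73e-07). It differed for 1 member, ATP5S, with CKI (0.91, adjusted p = 0.0143), for 1, ATP5S again, with OmtOspc (0.58, adjusted p = 0.0332) and for 1, the same gene, with MacOmtOspc (0.65, adjusted p = 0.0373). These 4 comparisons share untreated libraries, and COX6B2 became a member only through mixtures where it was high. The effect of CKI at 48 h differed between batch 2 and batch 1 for 4 members, among them NDUFA5 (0.37), NDUFA12 (0.32) and NDUFS3 (0.30).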

How the results depend on the processing

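Counts of members called, under settings that moved them over 1.5 times, were as follows. With 2 groups in the fit, CKI at 24 h had 17 and MacOmtOspc at 24 h 15. With all 54 libraries in 1 fit, CKI, N-MacOmtOspc, OmtOspc and MacOmtOspc at 24 h had 21, 37, 23 and 12, and CKI and N-Nme in batch 2 had 18 and 39. With library sizes alone, OmtOspc and MacOmtOspc at 48 h had 34 and 26, and the differences between times 32 with N-OmtOspc and 2 with OmtOspc. Without the 3 unnumbered libraries, CKI and MacOmtOspc at 24 h had 4 and 2, and the differences between times 2, 4 and 2 with N-MacOmtOspc, OmtOspc and MacOmtOspc. DESeq2 gave 3 for MacOmtOspc at 24 h and 2 for the differences between times with N-MacOmtOspc and with OmtOspc. Without the filter MacOmtOspc at 24 h had 0.

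Without 1 library at a time, the ranges at 24 h were 4 to 10 (CKI), 19 to 37 (N-OmtOspc), 14 to 24 (N-MacOmtOspc), 2 to 29 (OmtOspc) and 0 to 0 (MacOmtOspc). They were 29 to 51 for MacOmtOspc at 48 h, 27 to 39 and 19 to 27 for OmtOspc and MacOmtOspc against CKI, 0 to 1, 0 to 1, 0 to 3 and 0 to 1 for the times with CKI, N-MacOmtOspc, OmtOspc and MacOmtOspc, and 1 to 10 for the batches. The other comparisons stayed within 1.5 times. The causes were not tested.

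With the replicate number as a block, the pairing moved 1 count past 1.5 times, MacOmtOspc at 24 h, from 1 to 0. In no compared pair of groups were all same-number correlations above 0.1 (UT and CKI at 48 h in batch 1 had -0.09 to -0.04), so the numbers were not taken to pair libraries. N-MacOmtOspc and OmtOspc at 24 h, which were not compared with each other, had 0.145 to 0.582. Each of them holds an unnumbered library. For 40 named members, the called comparison with UT of the largest change was run under the alternatives. Of 527 such runs 517 kept direction and call, 10 lost the call and 0 reversed. These values were chosen as the largest called changes, so most were bound to hold. Over 23 comparisons with UT or CKI of the same 40 members, library sizes alone lost 48 calls and gained 43. RLE size factors lost 8 and gained 11, and 0 calls turned to the opposite direction under either. Depth limits COX6B2, with 7 to 20 counts over an untreated group, and counts cannot separate overlapping or copied genes.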
